A study of Mus musculus with 8 samples.

Results

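The 40 genes described here encode proteins that copy DNA in S phase or drive mitosis, and serve as a readout of how many cells in a tissue are dividing. They were taken by name from a list of S-phase and mitosis genes, a rule that uses no measured value although earlier results of these data were known when it was drawn up, and all 40 were found among the 27179 genes of the deposited count table. All 40 also passed the filter on low counts that left 18104 genes for testing, and the lowest count of any of them in any library was 178. The study sequenced poly(A)-selected RNA from whole spines of mouse embryos at E18.5, shortly before birth, and compared wild-type (WT) embryos with embryos carrying a deletion labelled Pax1-Enh KO (KO), in each sex. Pax1 is a transcription factor of the embryonic vertebral column, and the title ties the deleted region to adolescent idiopathic scoliosis and to sex. There were 4 groups of 2 libraries each, male WT, male KO, female WT and female KO, all from the same tissue and stage, with no other allele or agent named. The sources used here do not say whether the 2 libraries of a group came from separate embryos, litters or pools, so p-values measure the spread between these libraries, which may be technical. The labels name neither the coordinates of the deletion nor the genetic background, and counts per gene give no direct check of the genotype.

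A dividing cell first licenses its replication origins by loading the MCM helicase, and the E2F transcription factors with cyclin E then start S phase, when the MCM ring unwinds DNA, PCNA clamps the polymerases and enzymes such as ribonucleotide reductase supply nucleotides. Later FOXM1 and MYBL2 switch on the mitotic genes, and cyclin A and B with CDK1, the Aurora and Polo kinases, the spindle proteins, the centromere proteins and the spindle checkpoint carry the cell through mitosis until the anaphase-promoting complex (APC/C) ends it. In the late embryonic spine dividing cells are found among growth plate chondrocytes, myoblasts, blood and endothelial cells and glial precursors, so in a bulk sample fewer cells of a type and less RNA per cell cannot be told apart.

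Library totals ranged from 35181518 to 67575728 counts, and all 4 KO libraries were deeper than all 4 WT libraries, so depth and genotype cannot be told apart. The share of counts from mitochondrial genes was 18.3% and 20.9% in male WT, 4.56% and 15.6% in male KO, 5.55% and 7.27% in WT females, and 13.6% and 4.66% in KO females. Levels are given as CPM, a gene's count scaled to a fixed library size after edgeR's TMM adjustment. Markers of cartilage, bone and skeletal muscle were abundant in every library, with summed levels of at least 6001, 5731 and 12930 CPM. Single libraries also carried other tissue: 6 pancreas markers summed to 1960 in female WT 1 and to at most 6.40 elsewhere, and 8 adipocyte markers summed to 4991 in male WT 1 and 4804 in female WT 2 against 226 to 804 elsewhere. In addition, 5 liver markers summed to 1012 and 850.4 in male WT and 870 in male KO 1 against 29.5 to 122 in the other 5 libraries, and 5 lung markers to 28.0 in male WT 1 against at most 4.57 elsewhere. The part of this tissue in the members' values was not tested.

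Many cell cycle genes share promoter elements that bind the NF-Y, DREAM and E2F complexes, and the members' own promoters hold them often. RefSeq's table for GRCm38.p6 had an entry for 33 of the 40 members, and the 250 bases before the start were searched on both strands for the CCAAT box (CCAAT), the cell cycle genes homology region or CHR (spelled TTTGAA or TTCGAA) and E2F sites (spelled TTGGCGC, or with other bases in the middle as TTCGCGC, as TTGCCGC, or as TTCCCGC). The CCAAT box was found in 27 of 33 members (81.8%), against 33.8% of all 32851 promoter windows of the same length. An E2F match was found in 9 of 33 (27.3%, against 7.89% of all windows) and a CHR match in 10 of 33 (30.3%, against 17.1%). All 5 MCM genes with an entry held a CCAAT box and 3 of them an E2F match. The 5 windows printed first belong to genes whose KO libraries lay on opposite sides of WT in the 2 sexes, and the last, Ccne1, to the gene with the smallest p for sex. Capitals mark matches to the motifs, which can overlap each other.
Mcm3: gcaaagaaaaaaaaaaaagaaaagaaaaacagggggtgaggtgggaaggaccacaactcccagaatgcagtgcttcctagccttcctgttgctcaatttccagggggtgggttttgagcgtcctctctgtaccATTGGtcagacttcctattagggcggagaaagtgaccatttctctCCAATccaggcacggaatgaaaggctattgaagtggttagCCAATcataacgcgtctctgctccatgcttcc
Mcm6: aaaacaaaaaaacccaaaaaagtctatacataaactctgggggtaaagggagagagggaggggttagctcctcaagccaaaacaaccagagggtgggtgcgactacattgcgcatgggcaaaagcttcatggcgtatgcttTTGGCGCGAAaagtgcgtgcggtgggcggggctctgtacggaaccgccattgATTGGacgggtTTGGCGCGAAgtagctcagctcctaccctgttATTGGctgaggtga
Cdc20: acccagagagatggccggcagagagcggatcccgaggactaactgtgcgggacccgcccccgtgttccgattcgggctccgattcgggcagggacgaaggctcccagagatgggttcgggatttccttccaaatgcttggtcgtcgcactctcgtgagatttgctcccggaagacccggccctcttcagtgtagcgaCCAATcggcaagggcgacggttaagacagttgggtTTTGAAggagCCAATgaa
Ccnb2: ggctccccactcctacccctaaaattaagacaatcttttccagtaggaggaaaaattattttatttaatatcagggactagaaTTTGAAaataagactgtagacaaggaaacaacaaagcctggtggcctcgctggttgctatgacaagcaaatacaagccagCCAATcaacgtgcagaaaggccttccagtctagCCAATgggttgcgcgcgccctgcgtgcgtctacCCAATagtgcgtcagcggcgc
Plk1: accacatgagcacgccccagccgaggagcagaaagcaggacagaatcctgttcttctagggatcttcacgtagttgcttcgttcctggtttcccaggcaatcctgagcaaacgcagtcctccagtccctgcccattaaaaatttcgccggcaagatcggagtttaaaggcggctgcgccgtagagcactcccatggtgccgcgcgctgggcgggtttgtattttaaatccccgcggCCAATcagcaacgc
Ccne1: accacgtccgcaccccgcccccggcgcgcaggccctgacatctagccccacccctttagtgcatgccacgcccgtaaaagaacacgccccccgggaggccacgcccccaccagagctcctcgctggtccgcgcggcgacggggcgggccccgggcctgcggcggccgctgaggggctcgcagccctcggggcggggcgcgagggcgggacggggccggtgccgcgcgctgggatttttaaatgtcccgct
The windows lie at chr1:20820313-20820562, minus strand (Mcm3), chr1:128359706-128359955, minus strand (Mcm6), chr4:118437344-118437593, minus strand (Cdc20), chr9:70421555-70421804, minus strand (Ccnb2), chr7:122159185-122159434, plus strand (Plk1) and chr7:38107491-38107740, minus strand (Ccne1), outside the exons and introns of their own genes. Mcm3 held CCAAT boxes that began 117, 72 and 32 bases before its start, and Ccnb2 held 3, at 87, 54 and 21 bases, with a CHR match at 167. Cdc20 held a CHR match at 18 bases between CCAAT boxes at 53 and 8. Mcm6 held CCAAT boxes at 57 and 14 bases and 2 pairs of overlapping E2F matches, at 109 and 106 and at 46 and 43, and Plk1 had 1 CCAAT box at 14 bases. The Ccne1 window had no match to these letters. A match describes the sequence and is not evidence of binding in these spines.

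Each member was present in every library, and the members differed more from each other than any one did between libraries. Scaled per kilobase of the longest transcript and averaged over the 8 libraries, Pcna was the most abundant member at 48.3 ± 10.4 CPM per kilobase (SD, n = 8 libraries), followed by Top2a, the topoisomerase that untangles chromosomes, at 22.8 ± 4.80, and Ccna2 (cyclin A2) at 19.6 ± 2.70. The SDs of Top2a and Ccna2 overlap, and so do those of the next genes in order, Ccnb2, Cdca3 and Mcm6, so these neighbours do not differ beyond their spread. Lowest were Cenpe, Cenpf and Mybl2, at 3.27, 2.60 and 1.79 CPM per kilobase. Between the lowest and the highest library a member's level varied from 1.53-fold (Ccna2) to 4.80-fold (Ccne2). Female WT 1 was the highest library for 27 of 40 members and male KO 2 for 8, while male WT 2 was the lowest for 27 and male KO 1 for 9.

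**Figure D1:**
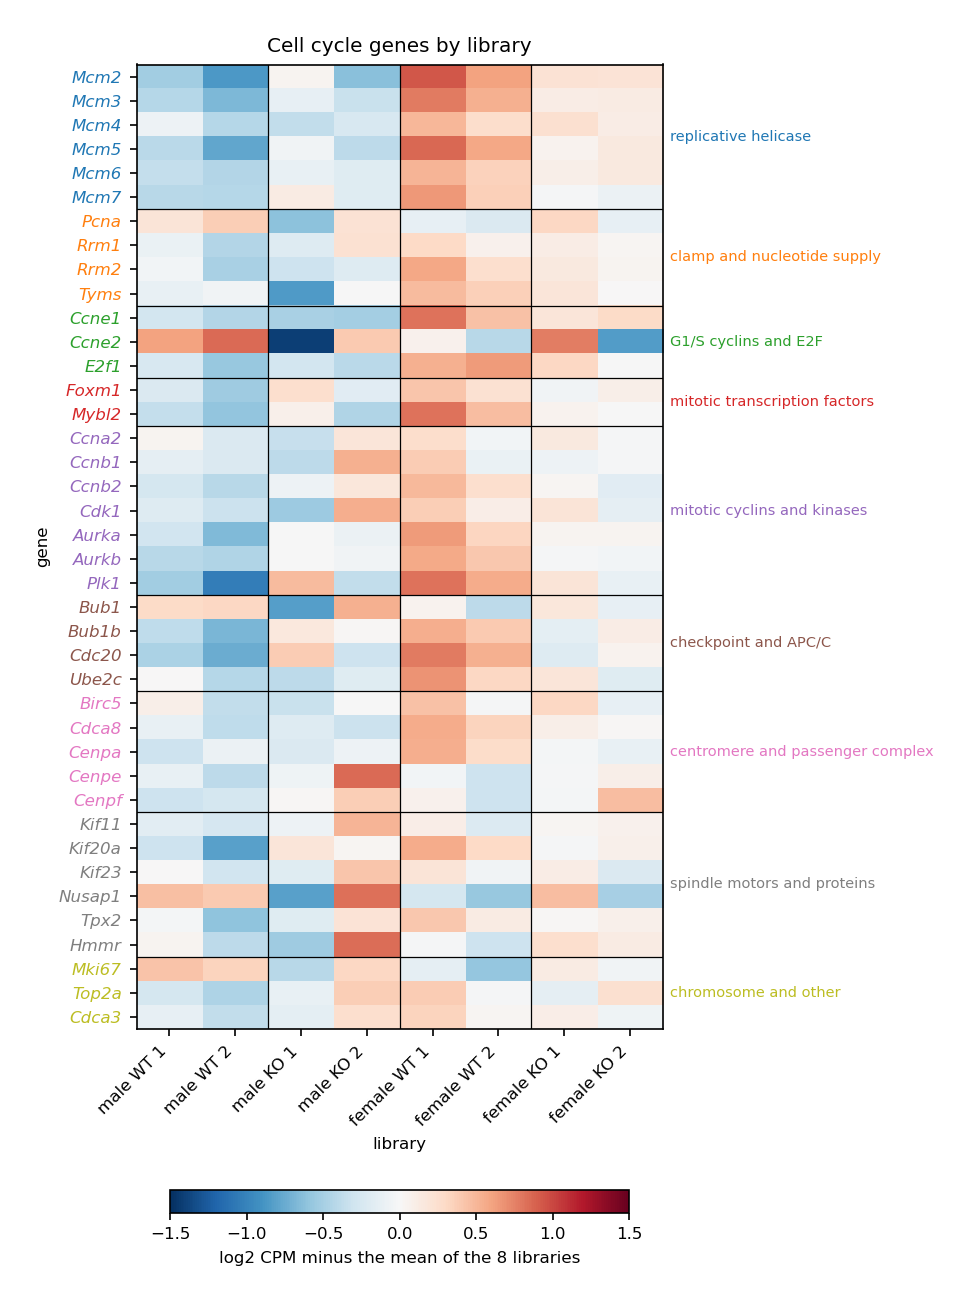
Level of each of the 40 members (rows, by role) in the 8 libraries (columns) as log2 CPM minus the member's mean over the libraries, on a colour scale in log2 units. The female WT columns are the highest for most members, with a median deviation over the 40 genes of 0.48 and 0.25, and male WT 2 is the lowest at -0.43, with male WT 1 and male KO 1 both at -0.18.

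By group mean, 5 of the 6 replicative helicase genes were highest in female WT and lowest in male WT, with both KO groups in between, and Mcm4 was highest in female WT too. Mcm2 (Entrez gene 17216, chr6:88883474-88898780, GRCm38.p6), a subunit of the hexameric MCM ring, measured 17.8 and 14.0 CPM in male WT, 26.2 and 16.6 in male KO, 48.6 and 38.8 in WT females and 29.7 and 29.4 in KO females. Mcm5 (Entrez gene 17218, chr8:75109468-75128439), another subunit of that ring, measured 29.1 and 22.3 CPM in male WT, 36.9 and 29.1 in male KO, 69.8 and 57.3 in WT females and 39.7 and 42.4 in KO females. For both genes the 2 female WT libraries lay above the other 6, and the female KO libraries lay above both male groups. Mcm3 measured 27.4 and 23.0 CPM in male WT, 33.8 and 29.3 in male KO, 63.2 and 53.4 in WT females and 39.6 and 40.1 in KO females. Mcm7 measured 34.0 and 33.7 CPM in male WT, 49.3 and 40.1 in male KO, 71.1 and 58.0 in WT females and 44.8 and 42.7 in KO females. Those subunits had the same order at the top, with female WT apart from the rest, but the Mcm7 values of male and female KO overlapped. Mcm6 ranged from 55.2 to 106 CPM with female WT again highest, and Mcm4 from 31.3 to 59.6, with male WT and male KO overlapping.

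Of the replication clamp and the enzymes of nucleotide supply, only Rrm1 had that order of group means. Pcna measured 81.7 and 92.3 CPM in male WT, 46.7 and 83.6 in male KO, 65.6 and 62.0 in WT females and 89.2 and 65.6 in KO females, so that its 2 male WT libraries were among the highest and male KO 1 the lowest. Rrm2, the regulated subunit of ribonucleotide reductase, measured 30.1 and 22.1 CPM in male WT, 25.0 and 27.0 in male KO, 46.2 and 37.0 in WT females and 34.4 and 31.8 in KO females. Tyms, which makes thymidylate, measured 23.3 and 24.3 CPM in male WT, 14.0 and 25.1 in male KO, 35.0 and 32.3 in WT females and 28.7 and 25.3 in KO females. Rrm2 and Tyms were highest in female WT like the helicase, and the 2 male groups overlapped. Rrm1, the large reductase subunit, averaged 67.3 CPM in male WT, 82.5 in male KO, 91.6 in WT females and 84.8 in KO females, and its libraries ranged from 59.4 in male WT 2 to 99.1 in female WT 1.

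Among the regulators of S-phase entry, cyclin E1 separated the sexes in every library and cyclin E2 did not. Ccne1 (Entrez gene 12447, chr7:38097984-38107490) measured 14.6 and 13.1 CPM in male WT, 12.7 and 12.4 in male KO, 31.2 and 24.1 in WT females and 20.2 and 21.6 in KO females, and all 4 female libraries lay above all 4 male libraries. E2f1 (Entrez gene 13555, chr2:154559400-154569892), an activating E2F factor, measured 15.4 and 12.2 CPM in male WT, 15.0 and 13.7 in male KO, 26.1 and 28.1 in WT females and 22.5 and 18.1 in KO females, again with no overlap between the sexes. Ccne2 measured 16.9 and 20.1 CPM in male WT, 4.18 and 14.7 in male KO, 11.7 and 8.34 in WT females and 19.0 and 6.25 in KO females. It was low in male KO 1, female KO 2 and both female WT libraries and high in the other 4, and its replicates differed within both KO groups. The factors that switch on mitotic genes were highest on average in female WT. Foxm1 measured 19.7 and 15.8 CPM in male WT, 27.4 and 20.3 in male KO, 30.6 and 26.7 in WT females and 22.0 and 24.3 in KO females. Mybl2, the lowest member in CPM, measured 4.86 and 4.11 CPM in male WT, 6.55 and 4.55 in male KO, 10.9 and 8.56 in WT females and 6.44 and 6.16 in KO females. The Foxm1 groups overlapped, since male KO 1 lay above female WT 2.

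Of the mitotic cyclins and CDK1, Ccna2, Ccnb1 and Cdk1 varied most between the 2 male KO libraries, and Ccnb2 did not. Ccna2 measured 59.1 and 49.3 CPM in male WT, 45.3 and 65.2 in male KO, 69.1 and 55.8 in WT females and 63.4 and 56.9 in KO females. Ccnb1 (cyclin B1) measured 28.3 and 26.6 CPM in male WT, 23.6 and 44.9 in male KO, 40.3 and 28.9 in WT females and 29.4 and 30.7 in KO females. Cdk1, the kinase both partners activate, measured 55.8 and 50.9 CPM in male WT, 43.7 and 93.3 in male KO, 82.4 and 68.1 in WT females and 72.8 and 58.2 in KO females. In all 3 genes male KO 1 was the lowest library and male KO 2 was first or second, so the spread inside that group exceeded any difference between group means. The Aurora and Polo kinases kept the order of the helicase genes. Aurkb, the kinase of the chromosomal passenger complex, measured 15.0 and 14.6 CPM in male WT, 19.8 and 19.3 in male KO, 29.6 and 26.5 in WT females and 19.7 and 19.4 in KO females. Plk1 (Entrez gene 18817, chr7:122159435-122169884), the Polo kinase of mitotic entry, measured 12.3 and 8.58 CPM in male WT, 24.5 and 13.6 in male KO, 31.0 and 25.9 in WT females and 20.1 and 16.3 in KO females. Both were lowest in male WT and highest in female WT with no overlap against the KO group of the same sex. Aurka ranged from 9.32 to 22.9 CPM and Ccnb2 from 20.4 to 38.3, each lowest in male WT 2 and highest in female WT 1.

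Among the checkpoint and APC/C genes, Cdc20 and Bub1b were at opposite sides of WT in the KO groups of the 2 sexes. Cdc20 (Entrez gene 107995, chr4:118432901-118437343), the activator of the APC/C and target of the checkpoint, measured 17.4 and 14.4 CPM in male WT, 31.6 and 19.5 in male KO, 41.4 and 34.9 in WT females and 21.1 and 25.0 in KO females. Bub1b, which encodes the checkpoint protein BubR1, measured 20.3 and 16.3 CPM in male WT, 29.2 and 26.6 in male KO, 38.3 and 34.5 in WT females and 23.7 and 28.4 in KO females. Ube2c, the APC/C's ubiquitin-conjugating enzyme, measured 35.0 and 26.0 CPM in male WT, 26.7 and 30.8 in male KO, 55.8 and 43.4 in WT females and 39.6 and 30.7 in KO females. In Cdc20 and Bub1b both male KO libraries lay above male WT and both female KO libraries below female WT, while Ube2c overlapped in the males. Bub1, a checkpoint kinase, ranged from 11.9 CPM in male KO 1 to 30.6 in male KO 2.

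Centromere and passenger complex genes were less ordered. Birc5 (survivin) measured 30.6 and 22.4 CPM in male WT, 22.9 and 28.7 in male KO, 39.2 and 28.5 in WT females and 35.9 and 26.6 in KO females, with all 4 groups overlapping. Cenpa, the centromeric histone, measured 24.4 and 28.6 CPM in male WT, 26.2 and 28.9 in male KO, 44.4 and 36.8 in WT females and 29.8 and 28.0 in KO females. Its female WT libraries lay above the other 6, whose range was narrow. Cenpe, a kinetochore motor, measured 23.2 and 19.1 CPM in male WT, 23.8 and 45.2 in male KO, 24.3 and 20.2 in WT females and 24.6 and 26.5 in KO females. Cenpf, a kinetochore protein of G2 and mitosis, measured 22.9 and 23.6 CPM in male WT, 28.6 and 36.6 in male KO, 29.6 and 22.8 in WT females and 27.9 and 39.2 in KO females. For both genes male KO 2 or female KO 2 was the highest library and the WT groups of the 2 sexes overlapped. Cdca8 (borealin) ranged from 16.1 to 30.8 CPM with female WT highest.

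Of the 6 spindle genes, 4 were highest in male KO 2. Kif11, the kinesin that keeps spindle poles apart, measured 38.4 and 36.1 CPM in male WT, 40.9 and 61.0 in male KO, 46.3 and 37.3 in WT females and 43.8 and 44.9 in KO females. Kif20a, a kinesin of the cleavage furrow, measured 17.0 and 12.0 CPM in male WT, 24.0 and 21.6 in male KO, 31.2 and 26.0 in WT females and 20.9 and 22.2 in KO females. Kif20a was highest in female WT 1, as was Tpx2. Nusap1 ran from 31.2 CPM in male KO 1 to 97.1 in male KO 2, and Hmmr from 17.4 to 44.9 in the same pair. Kif23 (21.8 to 35.5 CPM) and Tpx2 (32.0 to 64.4 CPM) varied less. Mki67 (Entrez gene 17345, chr7:135689784-135716450), the proliferation antigen Ki-67, measured 196 and 183 CPM in male WT, 109 and 181 in male KO, 132 and 97.7 in WT females and 159 and 140.1 in KO females. Top2a measured 97.4 and 84.4 CPM in male WT, 108 and 151 in male KO, 152 and 115 in WT females and 106 and 138 in KO females. These common proliferation markers differed in their order: Mki67 was highest in male WT and Top2a lowest there. Cdca3, a mitotic entry factor, ranged from 27.3 to 44.4 CPM.

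**Figure D2:**
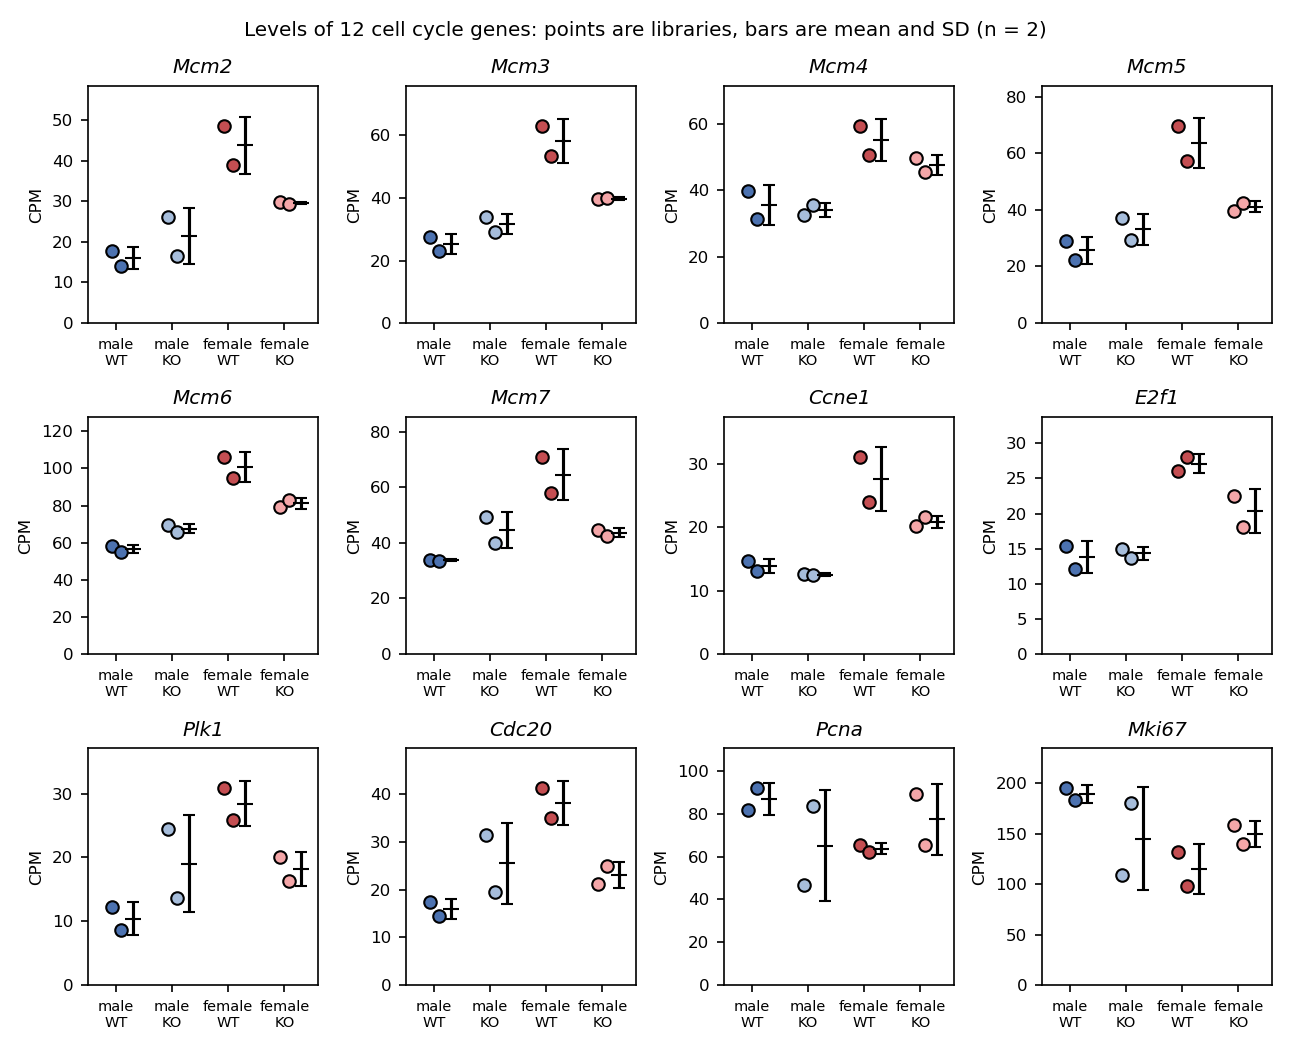
CPM of 12 members in each of the 8 libraries, as points by group, with the mean and SD (n = 2) beside them. Mcm2, Mcm5 and Cdc20 are highest in female WT with the KO groups between the 2 WT groups, whereas Mki67 is highest in male WT, at 183 and 196 CPM.

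The first comparison was between the sexes. Over both genotypes, members were mostly higher in females, with a median log2 fold change of 0.33 over the 40 genes against 0.00 over all 18104 genes tested, and 32 of 40 above 0. The fold changes come from edgeR's quasi-likelihood fit, each with its standard error (SE), and a call needs a p under 0.05 after Benjamini-Hochberg adjustment over all genes. No member reached that in edgeR, where 3 of 18104 genes did (0.0166%). DESeq2 called 2 members, Ccne1 (adjusted p = 0.00113) and E2f1 (adjusted p = 0.0392), among 1.18% of genes, and limma voom called none. At an unadjusted p under 0.05, 13 members were higher in females and none lower, against 3.38% and 5.29% of all genes.

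Ccne1 had the smallest p of all members, with a log2 female minus male difference of 0.87 (SE 0.16), or 1.82-fold (95% interval 1.41 to 2.35), and an edgeR adjusted p of 0.325. E2f1 differed by 0.74 (SE 0.18), with an edgeR adjusted p of 0.366. In the helicase, 5 of the 6 subunits were in the group with an unadjusted p under 0.05, at 0.96 (SE 0.26) for Mcm2, 0.81 (SE 0.24) for Mcm5 and 0.77 (SE 0.21) for Mcm3, and Mcm7 was the sixth at 0.45 (SE 0.22). The edgeR adjusted p-values of Mcm2 and Mcm3 were 0.381 and 0.408. All 4 libraries of one sex lay apart from all 4 of the other for 11 members, always with females higher, against 2.23% of all genes. Spindle genes ran from -0.49 (SE 0.36) for Nusap1 to 0.44 (SE 0.25) for Kif20a, and Mki67 was at -0.34 (SE 0.25). Without female WT 1 the count of 13 was 7.

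The median difference was larger among the WT than among the KO libraries, and no member passed adjustment in the test of that, which is given with the KO effects. Female minus male within WT had a median of 0.62 over the members against -0.02 over all genes, with 35 of 40 above 0. Sex within WT cannot be told apart from the mitochondrial share, which was 18.3% and 20.9% in males and 5.55% and 7.27% in females. At an unadjusted p under 0.05, 21 members were higher in female WT and 1, Mki67, was lower, against 11.6% and 15.7% of all genes. No member passed adjustment in edgeR, where 1 of 18104 genes did (0.00552%), but the 8 members with the smallest p were all at an adjusted p of 0.102. All 6 helicase subunits were among the 21, with a median of 1.07. Mcm2 was 2.75-fold (95% interval 1.77 to 4.28) higher in female than in male WT, Mcm5 2.47-fold (95% interval 1.69 to 3.62), and Mcm3 differed by 1.21 (SE 0.22) on the log2 scale. The G1/S regulator Ccne1 was 2.00-fold (95% interval 1.41 to 2.82) higher, and among mitotic genes Plk1 was 2.73-fold (95% interval 1.63 to 4.57) and Cdc20 2.40-fold (95% interval 1.54 to 3.73) higher. Aurkb differed by 0.92 (SE 0.20) and Bub1b by 0.99 (SE 0.22). Mki67 was lower, at -0.72 (SE 0.30), Nusap1 was at -0.83 (SE 0.50), Pcna at -0.45 (SE 0.30) and Ccne2 at -0.89 (SE 0.62). Leaving out either male KO library gave 14 members past adjustment, and the fit with no filter on low counts gave 6. Male KO is not in this contrast but enters its estimate of the spread. The 14 genes were the same each time, but both refits use the same WT libraries, so their overlap is no further evidence. The share of all genes past adjustment in these fits was not computed, so the counts have no background beside them.

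Within KO the members' median difference was close to that of all genes. It was 0.04 over the members against 0.01 over all genes, and 1 member, Ccne1, had an unadjusted p under 0.05, at 0.73 (SE 0.22) with an edgeR adjusted p of 0.874, against 1.45% of all genes higher and 3.5% lower. The helicase median was 0.32 and the values ran from -0.03 (SE 0.22) for Mcm7 to 0.49 (SE 0.22) for Mcm4. Plk1 was at -0.07 (SE 0.32) and Cdc20 at -0.15 (SE 0.28), with 95% intervals that include both directions. In this comparison 0 members and 2 of 18104 genes (0.011%) passed adjustment in edgeR. These within-genotype contrasts were added after the values were seen, and DESeq2 and limma were not run on them.

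The second comparison was the effect of the deletion in each sex. In males, members were mostly higher in KO, with a median log2 fold change of 0.31 against -0.06 over all genes and 28 of 40 above 0. No member passed adjustment in edgeR, where no gene did (0.0%), nor in DESeq2, which called 2.72% of genes, nor in limma voom. At an unadjusted p under 0.05, 5 members were higher in male KO and none lower, against 7.53% and 7.29% of all genes. The 5 were all mitotic: Bub1b at 0.61 (SE 0.22), Kif20a at 0.65 (SE 0.24), Plk1 at 0.87 (SE 0.32), Cdc20 at 0.68 (SE 0.28) and Cenpe at 0.71 (SE 0.31), with edgeR adjusted p-values of 0.289, 0.292, 0.292, 0.316 and 0.336. All 7 mitotic cyclins and kinases were above 0, from 0.03 (SE 0.25) for Ccna2 to Plk1. Of the helicase, 5 of 6 subunits were above 0, with Mcm2 at 0.43 (SE 0.28) and Mcm4 at -0.06 (SE 0.22). Lowest were Ccne2 at -0.98 (SE 0.62), Pcna at -0.42 (SE 0.30), Mki67 at -0.39 (SE 0.30) and Bub1 at -0.29 (SE 0.40), all with SEs of 0.30 or more. For 16 members both male KO libraries lay above both male WT libraries and for 3 below, against 19.7% and 23.9% of all genes. The count of 5 was 3 without male WT 1, 0 without male WT 2 and 3 without female KO 1. Without male KO 2, 6 members had an unadjusted p under 0.05 in the lower direction, and the log2 fold change of Plk1 was 0.39 with male KO 1 left out and 1.23 with male KO 2 left out.

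In females, members were mostly lower in KO, with a median of -0.31 against 0.03 over all genes and 9 of 40 above 0. No member passed adjustment in edgeR, where no gene did (0.0%), in DESeq2, which called 0.799% of genes, or in limma voom. At an unadjusted p under 0.05, 7 members were lower in female KO and none higher, against 4.74% and 4.53% of all genes. They were Mcm5 at -0.63 (SE 0.24), Mcm7 at -0.56 (SE 0.22), Mcm3 at -0.55 (SE 0.21), Aurkb at -0.52 (SE 0.20), Cdc20 at -0.73 (SE 0.28), Cenpa at -0.49 (SE 0.21) and Mybl2 at -0.63 (SE 0.28). The edgeR adjusted p was 0.532 for the first 5 in order of p. In linear terms Mcm5 was 0.645-fold (95% interval 0.443 to 0.940) of its WT level and Cdc20 0.604-fold (95% interval 0.391 to 0.935). All 6 helicase subunits and all 7 mitotic cyclins and kinases were below 0, as were Ccne1 and E2f1. Above 0 were Nusap1 at 0.47 (SE 0.49), Mki67 at 0.38 (SE 0.30), Cenpf at 0.36 (SE 0.26), Hmmr at 0.34 (SE 0.40), Ccne2 at 0.33 (SE 0.61) and Pcna at 0.28 (SE 0.30), with Bub1, Cenpe and Kif11 between 0.08 and 0.20. For 23 members both female KO libraries lay below both female WT libraries and for 4 above, against 26.2% and 25.9% of all genes. The count of 7 was 0 without female WT 1, without female KO 1 or without female KO 2.

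**Figure D3:**
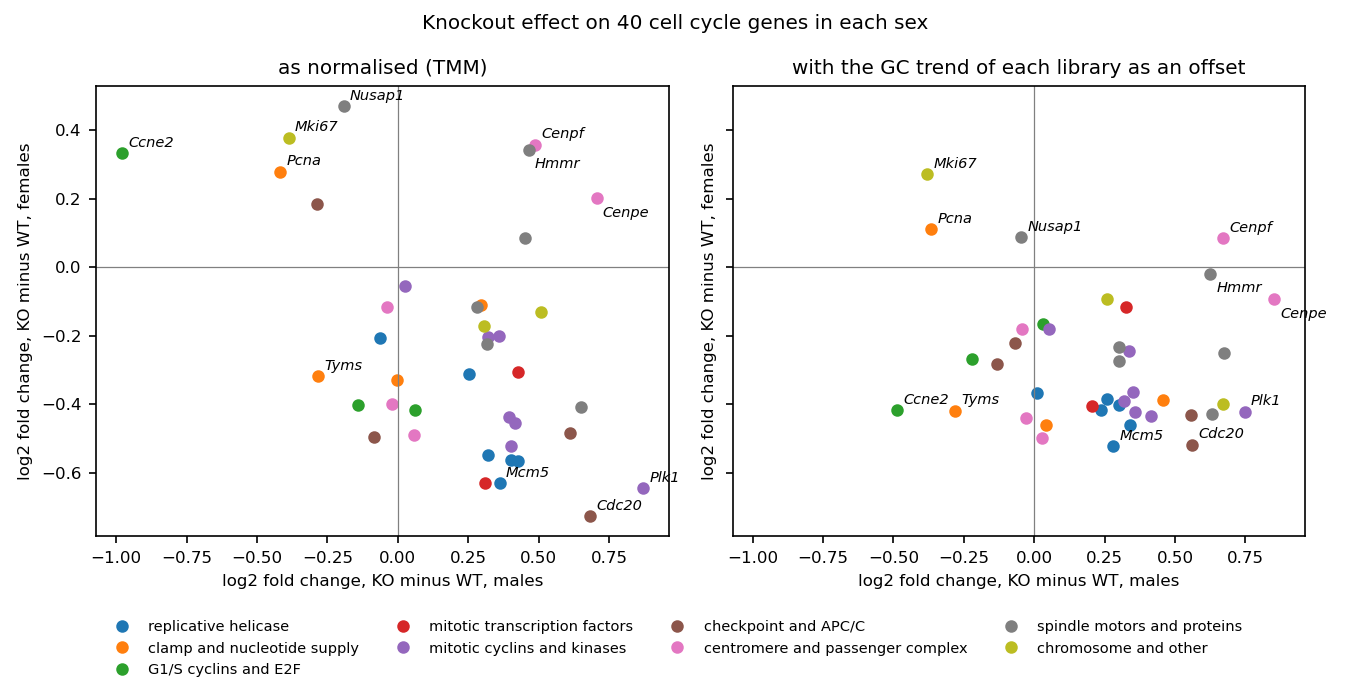
Log2 fold change KO over WT of each member in males (x axis) and in females (y axis), with TMM scaling on the left and with the GC offset on the right, in log2 units and coloured by role. Most points lie right of 0 and below 0, with medians of 0.31 and -0.31 on the left.

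The male and female KO effects rest on separate libraries, and their difference was tested as a contrast of its own. Female minus male KO effect had a median of -0.49 over the members against 0.03 over all genes, and 35 of 40 were negative. No member passed adjustment in edgeR, where no gene did (0.0%), in DESeq2, which called 2.1% of genes, or in limma voom. At an unadjusted p under 0.05, 12 members were lower and none higher, against 7.13% and 9.61% of all genes. The smallest p-values belonged to Cdc20 at -1.41 (SE 0.39), Bub1b at -1.09 (SE 0.31), Plk1 at -1.52 (SE 0.45) and Aurkb at -0.92 (SE 0.28), with edgeR adjusted p-values of 0.243, 0.243, 0.247 and 0.248. DESeq2's adjusted p was 0.0579 for Cdc20, its closest member. Helicase subunits had values of -0.99 (SE 0.39) for Mcm2, -0.99 (SE 0.34) for Mcm5, -0.96 (SE 0.31) for Mcm7 and -0.87 (SE 0.30) for Mcm3. For 12 members (Mcm3, Mcm5, Mcm6, Mcm7, Foxm1, Aurka, Aurkb, Plk1, Ccnb2, Bub1b, Cdc20 and Kif20a) both KO libraries lay above WT in males and below WT in females, against 6.09% of all genes. Mki67 was the 1 member with the reverse order, against 8.15% of all genes, and its difference was 0.77 (SE 0.43). This contrast equals the sex difference within KO minus that within WT and uses the same libraries, so it is no further evidence for either. The count of 12 was 5 without male WT 2, 5 without female WT 1 and 7 without female KO 1, and 5 members were higher without male KO 2. With the mitochondrial share as a covariate it was 4, against 3.35% of all genes lower and 8.0% higher, with a median of -0.64.

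Over both sexes the opposite values cancelled. The median KO effect was -0.02 against -0.01 over all genes, with 16 of 40 above 0. No member passed adjustment in edgeR, where no gene did (0.0%), in DESeq2, which called 0.734% of genes, or in limma voom. At an unadjusted p under 0.05, 1 member was higher and none lower, namely Cenpf at 0.42 (SE 0.18) with an edgeR adjusted p of 0.728, against 2.84% and 3.99% of all genes. Next by p were Cenpe at 0.45 (SE 0.23), Ccne1 at -0.27 (SE 0.16) and Ube2c at -0.29 (SE 0.19), with edgeR adjusted p-values of 0.758, 0.811 and 0.838. All 6 spindle genes were above 0 with a median of 0.13, led by Hmmr at 0.40 (SE 0.28) and Kif11 at 0.27 (SE 0.19). Across genes this KO effect followed the length of the longest transcript. The Spearman correlation was 0.41 over 16421 genes and 0.45 over the 40 members, and the part of length in the members' values was not tested. Mcm2 was at -0.07 (SE 0.26), Mki67 at -0.00 (SE 0.25) and Cdk1 at 0.08 (SE 0.25). No member had all 4 KO libraries on one side of all 4 WT libraries, against 1.68% of genes higher and 1.63% lower. Cenpf lost its unadjusted p under 0.05 without male WT 1, male WT 2, male KO 2, female WT 2 or female KO 2, each left out alone, and 3 members had one without male KO 1.

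Differences between libraries also followed the GC content of the transcripts, across all genes as well as the members. Relative to the mean of the libraries, genes of the lowest GC content (43.9% or less, 1 in 5 genes) were high in male WT (0.22 and 0.43 log2), male KO 2 (0.34) and female KO 1 (0.13) and low in the other 4 (-0.07 to -0.37). The 4 libraries where these genes were high are also those with mitochondrial shares of 13.6% or more. Both male WT libraries were among these 4 and neither female WT library was, so within WT sex and these trends cannot be told apart. The members run from 36.3% GC (Ccne2) to 58.3% (E2f1), with a median of 47.8% against 49.8% over all genes with a value. Across genes, which are not independent replicates, the Spearman correlation of the female minus male difference within WT with GC was 0.53 over 16421 genes and 0.85 over the 40 members. For the KO effect in females it was -0.50 and -0.86, and for that in males 0.22 and 0.24.

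The members' median lay above that of genes in their own GC range in the sex difference within WT. The 20 members of lower GC (36.3% to 47.8%) had a median female minus male difference within WT of 0.20, against -0.45 over all genes in that range. The 20 of higher GC had 0.96 against 0.25. For the KO effect in females the same medians were -0.08 against 0.27 at lower GC and -0.49 against -0.13 at higher GC, and for that in males 0.14 against -0.17 and 0.38 against 0.06. All 7 members with an unadjusted p under 0.05 in the female KO comparison were of higher GC, as were all 12 in the difference between the sexes and 18 of the 21 higher in females within WT.

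**Figure D4:**
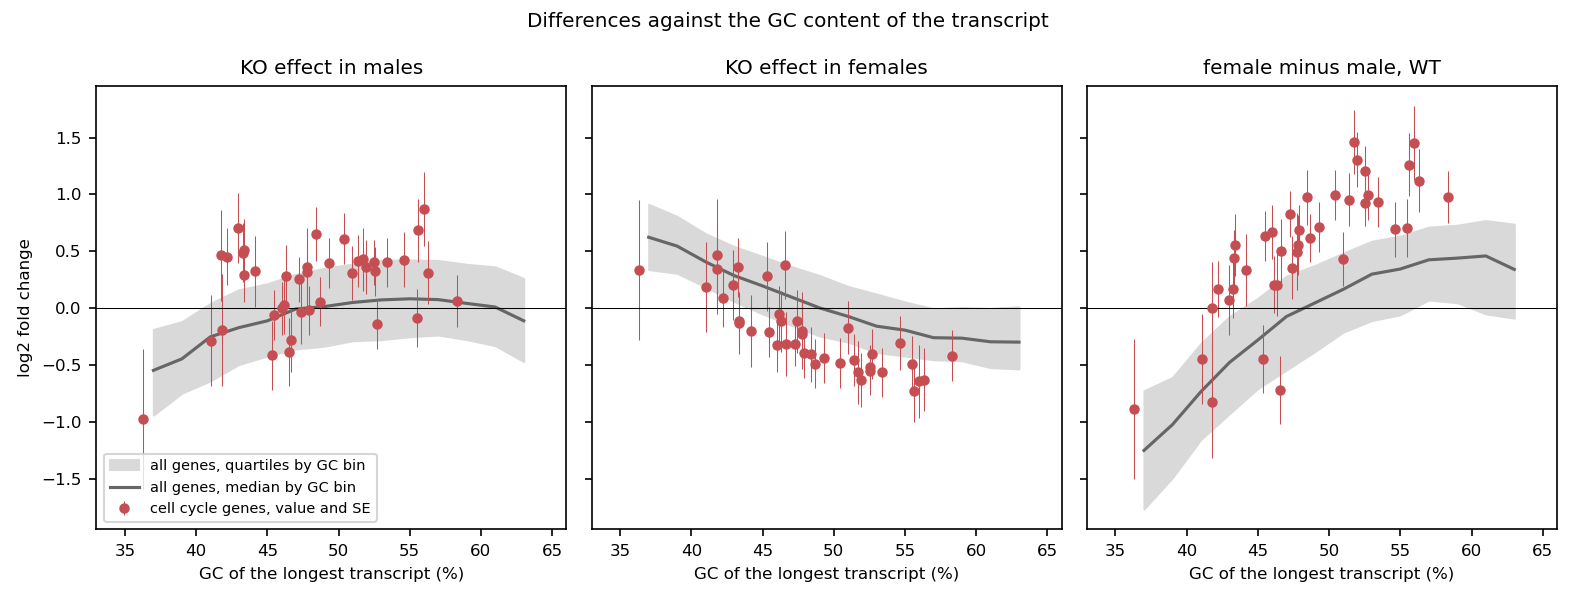
Log2 difference of each member (points) against the GC percent of its longest transcript, with SE bars, and the median and quartiles of all tested genes in bins of GC as a line and a band, in 3 comparisons. Most members lie below the line for the KO effect in females and above it for the sex difference within WT, where all genes in the higher GC range have a median of 0.25 and the members 0.96.

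Fitting with each library's own GC trend as an offset, an alternative chosen after the data were seen, changed the members' overall medians little, while genes of lower and higher GC shifted in opposite directions. Over all genes the correlation with GC was then 0.03 within WT and -0.01 for the KO effect in females. Over the 40 members 0.34 and -0.35 remained, and the source of these remaining correlations was not tested. The correlation of the KO effect over both sexes with length was 0.37 over all genes and 0.39 over the members. The median within WT was 0.20 before and 0.57 after for the 20 members of lower GC, and 0.96 before and 0.73 after for the 20 of higher GC. For the KO effect in females it went from -0.08 to -0.24 at lower GC and from -0.49 to -0.41 at higher GC, and for the difference between the sexes from -0.14 to -0.52 and from -0.87 to -0.68. Over all 40 members the median within WT was 0.65, with 27 members higher and 1 lower at an unadjusted p under 0.05, against 12.2% and 12.8% of all genes. Over both genotypes the median was 0.33 with 38 of 40 above 0, and 11 members were higher and none lower, against 3.31% and 5.41% of all genes. Within KO 2 members were higher and none lower, against 2.06% and 5.44%. The KO effect had a median of 0.29 in males, with 9 members higher and none lower, against 12.0% and 9.06% of all genes. In females it was -0.38, with 8 lower and none higher, against 5.85% and 3.9%. For the difference between the sexes the median was -0.58 with 17 lower and none higher, against 10.2% and 8.64%, and over both sexes no member was higher or lower, against 4.26% and 5.08%. No member passed adjustment in edgeR in any of these, where 0.0365% of genes did for sex over both genotypes, 0.0426% within WT and 0.0365% within KO. Single genes shifted with their GC: E2f1 within WT went from 0.98 to 0.59, Ccne2 from -0.89 to 0.36, Top2a from 0.56 to 0.98 and Nusap1 from -0.83 to -0.23. Mcm2 went from 1.46 to 1.26, Cdc20 from 1.26 to 0.92 and Mki67 from -0.72 to -0.60.

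**Figure D5:**
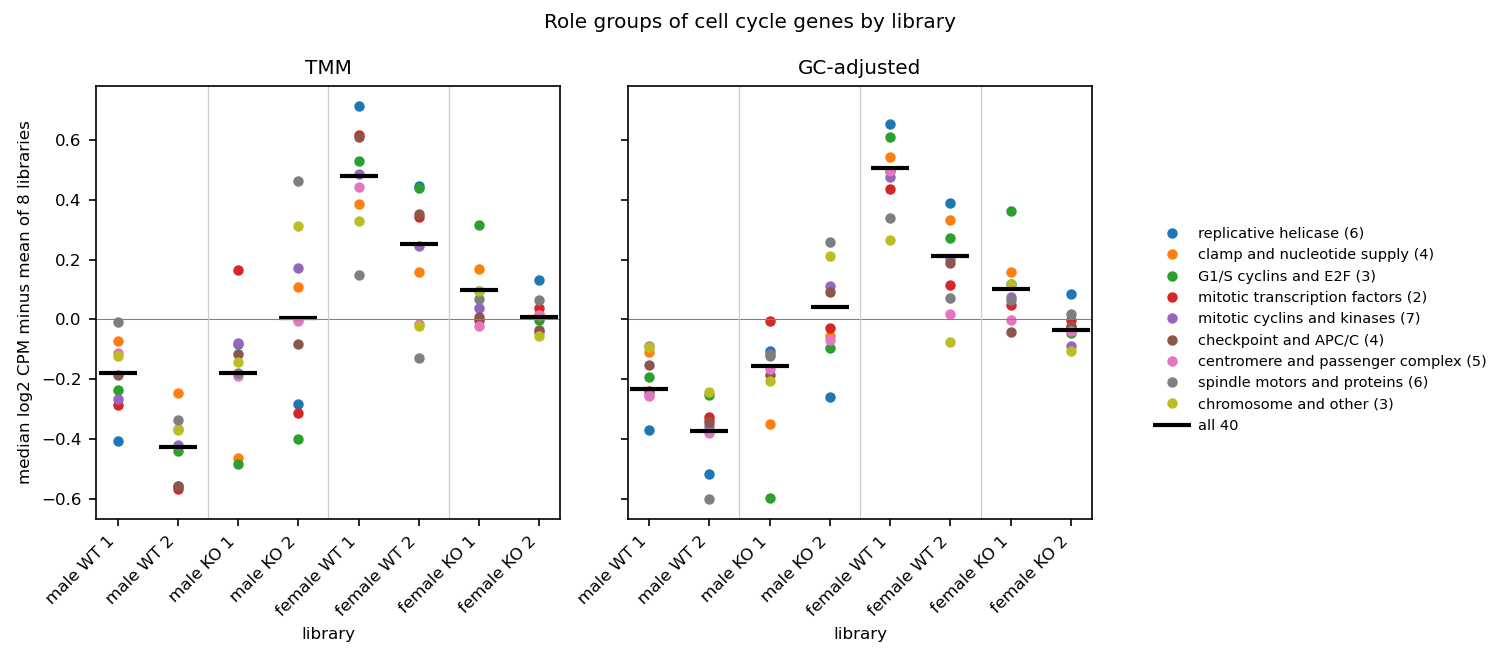
Median log2 deviation of each role group from its mean over the libraries, as 1 point per role in each of the 8 libraries with a bar for all 40 genes, with TMM scaling on the left and after the GC adjustment on the right. The helicase group runs on the left from -0.56 in male WT 2 to 0.72 in female WT 1.

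Other cell cycle genes, from lists written from textbook knowledge with earlier results of these data known, were compared in the same fits, and no gene in them passed adjustment in edgeR. Of 36 further S-phase genes, 13 were higher and 2 lower in female than in male WT at an unadjusted p under 0.05, with a median of 0.27, against 11.6% and 15.7% of all genes, and over both genotypes 10 were higher and none lower, against 3.38% and 5.29%. Cdca7, a chromatin factor that E2F and MYC drive, measured 8.73 and 9.27 CPM in male WT, 9.21 and 9.92 in male KO, 22.1 and 18.0 in WT females and 14.5 and 15.7 in KO females. Tk1 (thymidine kinase) measured 18.49 and 16.9 CPM in male WT, 24.8 and 21.2 in male KO, 42.2 and 36.5 in WT females and 26.2 and 27.3 in KO females. Uhrf1, which maintains DNA methylation at the fork, measured 28.8 and 23.2 CPM in male WT, 27.1 and 24.6 in male KO, 56.7 and 50.3 in WT females and 35.4 and 35.3 in KO females. All 3 were highest in female WT, with log2 differences within WT of 1.16, 1.15 and 1.04 and an edgeR adjusted p of 0.102 each. The 16 origin licensing genes had 4 higher and 1 lower in female WT, against those 11.6% and 15.7%, with a median of -0.16, so that Cdc6 (1.06) and Cdt1 (0.90), which load the helicase, did not stand for the list. Of 50 further mitotic genes 13 were higher and 1 lower within WT, against the same shares of all genes, with a median of 0.33, led by Pimreg (0.84) and Gtse1 (1.10).

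The KO comparisons gave few such genes. In males 5 of the 50 further mitotic genes and none of the 36 further S-phase genes were higher at an unadjusted p under 0.05, with medians of 0.15 and -0.03, against 7.53% of all genes higher, so these counts were near the background or below it. In females 2 and 4 were lower, with medians of -0.08 and -0.13, and 1 S-phase gene was higher, against 4.74% of all genes lower and 4.53% higher. The longer S-phase list thus had a lower median in males than the helicase, at -0.03 against 0.34.

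A list of 9 G1 genes, which pass growth signals to the cell cycle, held the D cyclins Ccnd1, Ccnd2 and Ccnd3, the kinases Cdk2, Cdk4 and Cdk6, the phosphatase Cdc25a and the transcription factors Myc and Mycn. Over both genotypes 6 of the 9 were higher in females at an unadjusted p under 0.05 and none lower, against 3.38% and 5.29% of all genes, with a median of 0.53. Cdk4 measured 148 and 141 CPM in male WT, 128 and 135 in male KO, 258 and 229 in WT females and 184 and 167 in KO females. Its partner Ccnd3 (cyclin D3) measured 149.9 and 109 CPM in male WT, 219 and 159.9 in male KO, 308 and 306 in WT females and 231 and 191 in KO females. For Cdk4 the female WT libraries stood above all others and the KO females above both male groups. Of 7 CDK inhibitors tested, 1 was higher and 1 lower in female WT, near the 11.6% and 15.7% of all genes. Cdkn1a (p21), which arrests the cycle on damage or differentiation, measured 118 and 99.3 CPM in male WT, 192 and 179 in male KO, 199 and 233 in WT females and 152 and 152 in KO females, at 0.99 (SE 0.24) within WT and 0.77 (SE 0.24, edgeR adjusted p = 0.261) for KO over WT in males. Cdkn1b (p27), an inhibitor of resting cells, measured 57.0 and 62.7 CPM in male WT, 37.3 and 55.6 in male KO, 27.9 and 31.3 in WT females and 41.9 and 35.9 in KO females, at -1.02 (SE 0.25) within WT. Of 17 pocket protein, E2F and DREAM genes, 5 were higher and 3 lower in female WT, against those shares of all genes. Tfdp2, a partner of E2F factors, was higher in male KO at 0.89 (SE 0.22, edgeR adjusted p = 0.237). Of 14 p53 targets 1 was higher and 4 lower in female WT, against the same shares, with a median of 0.13.

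Markers of cell types that include dividing cells were summed in each library, and such a sum does not tell dividing from resting cells. All 5 myoblast markers (Myod1, Myf5, Myog, Pax7 and Mymk) were counted in every library, and their sum was 66.3 to 114 CPM in male WT, 137 to 155 in male KO, 201 to 256 in WT females and 143 to 170 in KO females, the same order of groups at both ends as most helicase genes. Within WT 4 of the 5 were higher in females at an unadjusted p under 0.05, against 11.6% of all genes higher and 15.7% lower. Myf5 went the other way, at 7.15 and 7.13 CPM in male WT and 5.92 and 5.96 in WT females. Myog and Mymk were the largest parts of the sum, at 52.2 and 38.2 CPM in male WT 1 and 123 and 82.6 in female WT 1. All 7 endothelial markers summed to 193 to 345 CPM in male WT, 383 to 497 in male KO, 422 to 618 in WT females and 344 to 382 in KO females. Their lowest library was in male WT and their highest in female WT, as for the myoblast markers, though groups overlapped. All 6 neural progenitor markers summed to 1423 to 2585, 450 to 778, 378 to 528 and 498 to 942, and all 9 neutrophil and myeloid precursor markers to 960 to 1245, 490 to 1024, 162 to 452 and 110 to 269, both highest in male WT. The 8 cartilage markers summed to 6057 to 9643, 12739 to 27502, 6001 to 11809 and 11481 to 18927, higher in both KO groups than in male WT and without the helicase order. The 7 erythroid markers in the table summed to 1155 in male WT 1 and to 185 to 569 elsewhere, also without that order. No marker of these 6 lists was at 0 in any library. The part of these cell types in the members' values was not tested.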

How the data were processed

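RNA was extracted with TRIzol from frozen, crushed whole spines and libraries were made with the Illumina TruSeq Stranded mRNA kit, per the labels' protocols. The submitters' processing notes name FastQC 1.0.0, MultiQC 1.0.0, HISAT2, featureCounts and the mm10 build. The deposited table holds raw read counts per Entrez gene as the authors made them, 1 column per library. For the annotation, the strand setting and reads that map to several places, the settings are not stated in the notes, so reads of overlapping genes cannot be told apart. Entrez IDs were matched to symbols with RefSeq (25275 of 27179) and GENCODE M21 (18 more), and 1886 stayed unnamed.

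The counts were tested with edgeR 4.0.16 in R 4.3.3: TMM scaling, filterByExpr by group with a minimum count of 10, a quasi-likelihood fit of 4 group means (for comparisons over both sexes or genotypes, an additive fit of sex and genotype), two-sided, with Benjamini-Hochberg adjustment over 18104 genes. The biological coefficient of variation was 27.8%, and the median SE of the members' log2 fold changes was 0.25 in each sex. The scripts were tested on simulated data. Alternatives were DESeq2 1.42.0 (its test, and its size factors), limma 3.58.1 (voom), other filters, covariates and left-out libraries. The members and all gene lists were chosen with earlier results of these data known. Values in every library were given for fixed genes of each role and for the 4 members with the smallest p in each comparison, and up to 3 genes with the smallest p were named from other lists. Lengths and GC content are those of the longest GENCODE transcript of a gene. The GC offset was each library's lowess trend on GC content of log2 CPM minus the gene's mean over the libraries. The trend was fitted over the 14388 genes of higher level and applied to 16421 genes.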

Additional observations from a re-analysis of the deposited data

How the results depend on the processing

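Leaving out male WT 1 and female WT 2, the libraries with most adipocyte RNA, left 1 library in each WT group. The members' median was then 0.49 in male KO, -0.80 for the difference between the sexes and 0.96 within WT. The WT pair left was male WT 2, the lowest library for 27 members, and female WT 1, the highest for 27. The median of 0.96 is thus the gap between those 2 libraries. In the additive fit 5 members were higher in females over both genotypes. With the GC offset 9 members were higher in male KO, and within WT 27 were higher and 1 lower (median 0.65) and within KO 2 were higher (median 0.040), against 21 and 1 (median 0.62) and 1 (median 0.041) without it. With the mitochondrial share as a covariate 4 members were lower in the difference between the sexes (median -0.64). The member higher in KO over both sexes was lost, leaving 0, without the filter on low counts, in limma voom, with either replicate block, with the mitochondrial covariate, with the GC offset and without those 2 libraries. DESeq2 called 2 members for sex over both genotypes, and the fit with no filter 6 within WT, where the share of all genes was not computed. None was lower within WT with DESeq2 size factors, without mitochondrial genes, with the replicate block or with the mitochondrial covariate. The causes were not tested.

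Leaving out 1 library at a time, the number of members with an unadjusted p under 0.05 ranged from 0 to 7 higher and 0 to 6 lower in male KO (median 0.11 to 0.43), from 0 to 10 lower in female KO (median -0.39 to -0.19), from 5 to 13 lower and 0 to 5 higher for the difference between the sexes (median -0.66 to -0.29), from 0 to 3 higher and 0 to 1 lower in KO over both sexes (median -0.13 to 0.09), from 7 to 19 higher and 0 to 3 lower in females over both genotypes (median 0.23 to 0.45), and from 14 to 25 higher and 0 to 2 lower within WT (median 0.49 to 0.81), where 0 to 14 passed adjustment. The shares of all genes in these refits were not computed.

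The replicate numbers are not shown to pair libraries: over 15070 genes the replicate differences of the groups correlated at -0.62 to 0.22. With the replicate block 4 members were higher in male KO, 7 lower in female KO, 12 lower in the difference between the sexes, 0 higher over both sexes and 12 higher in females over both genotypes. Crossed in female KO, an alternative chosen after seeing the data, the block gave 4 higher and 1 lower in male KO, 6 lower in female KO and 13 lower in the difference.

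Each group held 2 libraries, and the median SE of a member's log2 fold change was 0.25 in each sex.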
